A study of Drosophila melanogaster with 2 samples.

Results

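Usf-GFP peaks that lie far from any annotated gene start were examined by chromatin immunoprecipitation followed by sequencing (ChIP-seq) of whole Drosophila melanogaster embryos. They are here called gene-poor peaks. Membership was positional: a peak of the pooled dm6 list qualified when its summit, the highest point of the peak, lay on arm 2L, 2R, 3L, 3R or X and more than 10 kb from every annotated transcription start site (TSS) of any transcript. The rule kept 2588 of the 21149 pooled peaks on these arms (12.2%), and the other 18561 peaks lay 10 kb or less from a TSS. Embryos of a line with a stable transgene for Usf, GFP being fused to its C terminus, were collected at 0 to 16 hours of age with both sexes pooled. Their chromatin was precipitated with an antibody against GFP. There was 1 group of 2 biological replicates, numbered 3 and 4, and no control library was analysed here. Whole embryos mix all cell types, so a weak peak could come from few cells or from weak binding in many, and peak values cannot tell these apart. The fusion protein is a transgene, and the labels do not say whether the line also keeps an untagged Usf gene.

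Usf belongs to the USF proteins, transcription factors with a helix-loop-helix and a leucine zipper. In vertebrates these recognise the E-box CACGTG, mostly close to gene starts. Fly genes are compact, but genes for developmental regulators, cell adhesion and neuronal signalling often have very long introns or wide intergenic stretches, where distal enhancers lie. Regions near the centromeres are also far from gene starts and are rich in transposable elements. Peak lists at relaxed thresholds keep weak sites and background together. The irreproducible discovery rate (IDR) procedure then uses how alike peaks rank in the replicates to decide how many to retain.

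Sequences from among the strongest gene-poor peaks are shown as examples of these sites. The first 4 below are the summits, with 50 bp to each side, of 4 gene-poor peaks that rank 2, 4, 7 and 8 among all gene-poor peaks by pooled signal, and all 4 are in the IDR list. The peaks at ranks 1, 3, 5 and 6 are described further on by their values, without sequence. The fifth is the summit, with 100 bp to each side, of a gene-poor peak with CACGTG, which is not in the IDR list. All are read 5′ to 3′ on the plus strand of the Release 6 genome (dm6). Capitals mark TTAAAA on either strand (TTTTAA on the plus strand) in the first 4, and CACGTG in the fifth.
Between NijA and CG43245, chr3L:10752755-10752855: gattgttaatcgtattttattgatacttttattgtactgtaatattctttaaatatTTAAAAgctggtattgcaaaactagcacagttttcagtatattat
Intron of fz, chr3L:14304035-14304135: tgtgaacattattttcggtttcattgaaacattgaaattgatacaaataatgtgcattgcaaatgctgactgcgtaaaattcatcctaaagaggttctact
Intron of lncRNA:CR32773, chrX:4590140-4590240: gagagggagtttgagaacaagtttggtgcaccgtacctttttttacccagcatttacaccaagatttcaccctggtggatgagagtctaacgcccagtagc
Intron of N, chrX:3162506-3162606: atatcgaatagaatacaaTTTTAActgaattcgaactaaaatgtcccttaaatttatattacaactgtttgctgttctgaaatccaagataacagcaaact
Between tRNA:Ile-TAT-1-2 and CG13898, chr3L:784195-784395: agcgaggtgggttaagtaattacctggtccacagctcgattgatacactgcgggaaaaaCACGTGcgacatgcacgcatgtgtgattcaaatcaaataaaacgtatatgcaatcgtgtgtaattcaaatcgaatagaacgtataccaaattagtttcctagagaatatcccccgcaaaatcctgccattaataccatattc
The GC content of the first 4 windows is 22.8%, 31.7%, 47.5% and 27.7% in the order shown. TTAAAA occurs in the first and the fourth, and none of the 4 holds CACGTG. In the fifth the E-box spans bases 784254 to 784259, left of the summit at 784295.

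Gene-poor peaks were sparse for the sequence they cover. The stretches more than 10 kb from every TSS made up 31.4 Mb of the 132 Mb of known sequence on the 5 arms (23.8%). They held 82.3 pooled peaks per Mb, against 184 per Mb in the remaining sequence. For peaks in the IDR list the densities were 3.82 per Mb in gene-poor sequence and 26.1 per Mb in the rest.

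The name gene-poor refers to gene starts, and most of these peaks lay inside genes. At least 1 gene body held the summit of 1807 of the 2588 peaks (69.8%). An intron held 1665 summits (64.3%, 95% Wilson interval 62.5% to 66.2%), and 781 summits (30.2%) were intergenic. Coding exons held 111 summits and non-coding exons 31. Introns made up 54.4% of gene-poor bases and intergenic sequence 40.2%, so the share of summits in introns was above the share of bases. These bases include transposon-rich and repeat-masked sequence, described further on, and shares of bases without it were not computed. Intervals on shares cover counting error over peaks only, and neighbouring peaks that share an intron are not independent. The TSS-free gap around a gene-poor peak had a median length of 47.9 kb (quartiles 34.0 and 77.3 kb).

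A smaller share of gene-poor peaks than of other peaks was in the IDR list or found in both replicates. The IDR list held 120 of the 2588 gene-poor peaks (4.64%, 3.89% to 5.52%), against 2636 of the 18561 other peaks (14.2%, 13.7% to 14.7%), and 13% of all pooled peaks. Both replicate lists held a summit within 100 bp of 600 gene-poor peaks (23.2%, 21.6% to 24.8%) and of 6455 other peaks (34.8%, 34.1% to 35.5%), beside 33.4% of all pooled peaks. A further 903 gene-poor peaks were matched in replicate 3 only, 705 in replicate 4 only and 380 in neither. A gene-poor base picked by position alone had summits of both replicate lists within 100 bp in 0.344% of cases. The pooled list was made from both replicates, so by construction its summits match their lists more often than such a base. Of the 120 gene-poor IDR peaks, 115 were found in both replicate lists, 3 in replicate 3 only and 2 in replicate 4 only. The IDR list holds the strongest pooled peaks by signal, with 71.3 as its lowest value, and recurrence was higher at higher signal, as described below. This high number is therefore not separate from the strength of these peaks.

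Both shares were lower at each step away from the TSS. The IDR share was 30.9% within 200 bp of a TSS, 15.8% from 200 to 1000 bp, 9.83% from 1 to 2 kb, 8.24% from 2 to 5 kb and 6.71% from 5 to 10 kb. Among gene-poor peaks it was 5.47% from 10 to 20 kb (92 of 1681) and 3.09% beyond 20 kb (28 of 907). The interval of the 10 to 20 kb class (4.48% to 6.67%) overlaps that of the 5 to 10 kb class (5.85% to 7.68%), so no step at the threshold of 10 kb was detectable. The share found in both replicates was 53.8% within 200 bp, 26.9% from 5 to 10 kb, 25.5% from 10 to 20 kb and 19.0% beyond 20 kb. Peak density followed the same order, with 389 pooled peaks per Mb within 200 bp of a TSS, 136 per Mb from 5 to 10 kb, 115 per Mb from 10 to 20 kb and 54.2 per Mb beyond 20 kb.

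**Figure D1:**
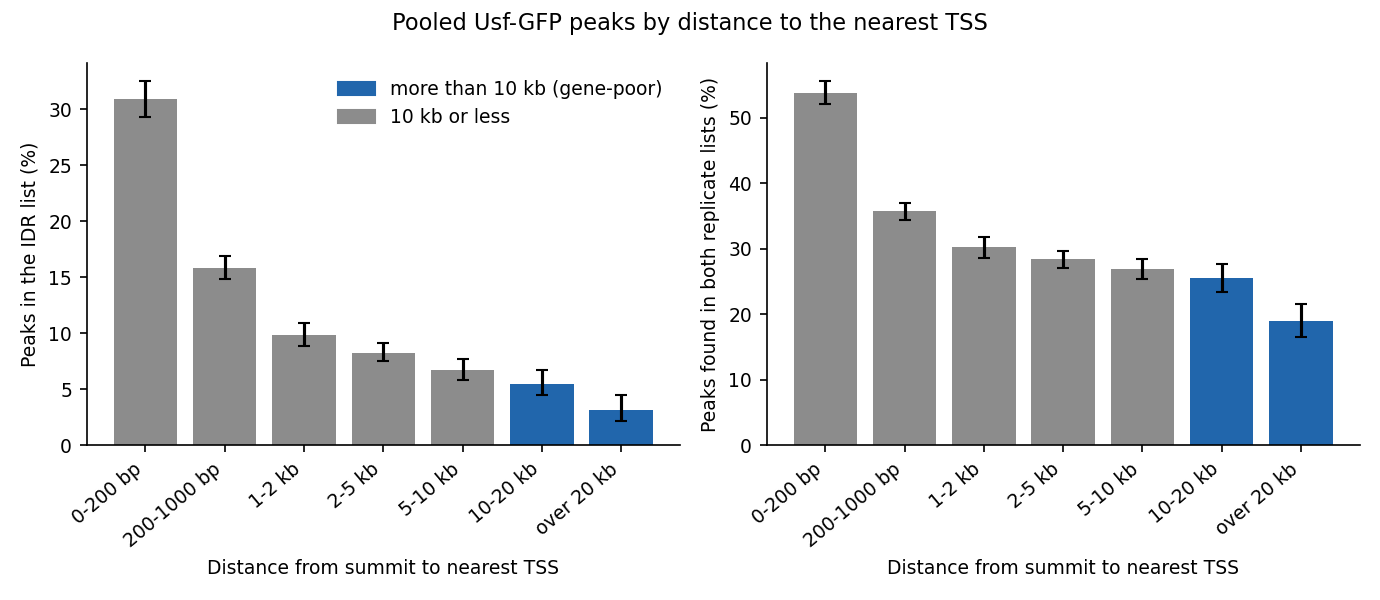
Share of pooled peaks in the IDR list (left, %) and found in both replicate lists (right, %) by distance from the summit to the nearest TSS; bars are shares and lines 95% Wilson intervals, with gene-poor classes in blue. The IDR share runs down from 30.9% within 200 bp to 3.09% beyond 20 kb, and the share in both lists from 53.8% to 19.0%.

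The 5 gene-poor peaks closest to 10 kb, the nearest of them 10001 bp from a TSS in an intron of CLIP-190, had signals between 23.8 and 44.5, and none was in the IDR list. The 5 peaks just short of 10 kb, the farthest at 9999 bp, had signals between 24.7 and 75.0, and the one with 75.0 was in the IDR list.

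Gene-poor peaks were also weaker. The signal is the authors' own value per peak, in units that the sources used here do not state, so it ranks peaks within a list only. The median pooled signal was 27.4 for gene-poor peaks (quartiles 24.3 and 33.4), 30.2 for the other peaks (25.2 and 44.8) and 29.7 for all pooled peaks, where the weakest peak in the list had 22.1. Among IDR peaks the median was 94.7 for the gene-poor ones (81.6 and 138) and 120.0 for the others (89.8 and 182). The IDR list holds the strongest pooled peaks by signal, so a lower share in that list and a lower signal are the same measurement read in different ways.

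Recurrence at a given signal was close to that of other peaks. The pooled list was divided at its quartiles of signal, 25.1, 29.7 and 42.7. Among the weakest of the 4 resulting classes, 2.24% of 848 gene-poor peaks and 2.61% of 4440 other peaks were found in both replicates. The shares were 11.1% and 10.3% in the second class, and 33.9% and 35.8% in the third. In the strongest class they were 81.5% of 335 gene-poor peaks (77.0% to 85.3%) and 85.2% of 4952 other peaks (84.1% to 86.1%). The intervals overlap in all 4 classes, and gene-poor peaks fall mostly in the weaker ones.

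Where a gene-poor peak was found in both replicates, its signals were compared. Over the 115 such IDR peaks the medians were 54.9 in replicate 3 and 46.8 in replicate 4. Spearman's rho between the replicates was 0.625 and Pearson's r of the log10 signals 0.736. Over the 485 such peaks outside the IDR list these were 0.289 and 0.322. Over the 2490 other IDR peaks found in both they were 0.757 and 0.821. These correlations are across peaks, which share the same 2 libraries, and the IDR peaks cover a higher range of signal than the peaks outside that list.

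**Figure D2:**
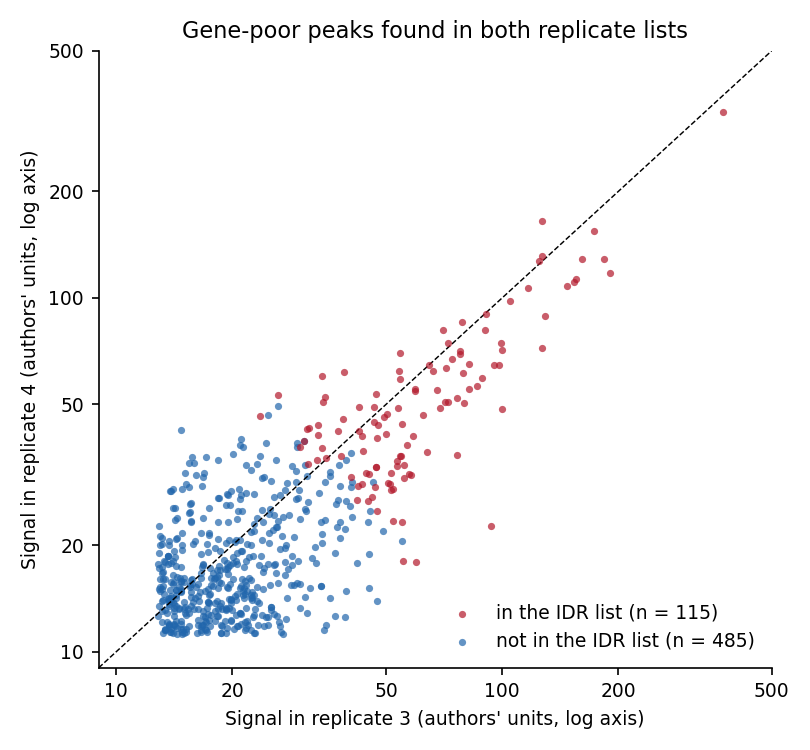
Signal of the 600 gene-poor peaks found in both replicate lists, replicate 3 on the x axis and replicate 4 on the y axis, both log axes in the authors' units; red points are in the IDR list and blue points are not, and the dashed line marks equal values. The 115 IDR peaks spread along the line (Spearman's rho 0.625), and the 485 others form a cloud at low signal (0.289).

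The strongest gene-poor peak was intergenic, 38229 bp from a TSS of Su(z)2, which encodes a Polycomb-group repressor, and 11904 bp from the TSS of CG13323 (chr2R:13035187-13035498). Its signal was 711 in the pooled list, rank 38 of all pooled peaks, with 373 in replicate 3 and 336 in replicate 4. The next was the peak between NijA and CG43245. It had a pooled signal of 330.0, with 173 in replicate 3 and 155 in replicate 4. NijA encodes ninjurin A, a cell-surface protein, and its TSS was 55928 bp away.

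Ranks 3, 5 and 6 were peaks in sbb, which are described with their locus. The peak in fz, the Frizzled receptor of Wnt and planar polarity signalling, had a pooled signal of 308, with 190.0 in replicate 3 and 118 in replicate 4. The peak in N, the Notch receptor, had 264, with 154 in replicate 3 and 111 in replicate 4, and lay 27686 bp from the TSS of N and 10584 bp from that of CG18508. The strongest peak in cv-2, which encodes a secreted BMP-binding protein, had 257, with 147 in replicate 3 and 108 in replicate 4. A peak in vn, which encodes a ligand of the EGF receptor, had 151, with 77.7 and 69.5 in replicates 3 and 4. In fz, N and cv-2 the value in the replicate 3 list was the higher. Over the 115 gene-poor IDR peaks found in both, the median ratio of replicate 3 to replicate 4 was 1.25. It was 1.17 over the 2490 other such IDR peaks. Each list has its own scale, so these ratios do not compare binding between the replicates.

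Further introns held the next peaks. The one in mamo, a BTB zinc-finger factor, had a pooled signal of 255, with 127 in replicate 3 and 131 in replicate 4. It lay 42272 bp from the nearest TSS, farther than any other gene-poor IDR peak. The peak in gpp, a histone methyltransferase, had a pooled signal of 217, and the one in simj, a subunit of the NuRD chromatin remodelling complex, 207. An intergenic peak with a pooled signal of 167 lay 15219 bp from a TSS of mid, a T-box factor. The remaining peaks among the 25 strongest, apart from the 3 in sbb, were in introns of lncRNA:CR32773 (276), lncRNA:CR44357 (179), B4 (164), aus (150.2) and Drak (148), a kinase of the death-associated family, or between genes. The intergenic ones included a peak between CheA75a and CG5103 (251), one between tRNA:Ile-TAT-1-2 and CG13898 (220.0) and one 11506 bp from a TSS of Toll-6, a Toll-family receptor (163).

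**Figure D3:**
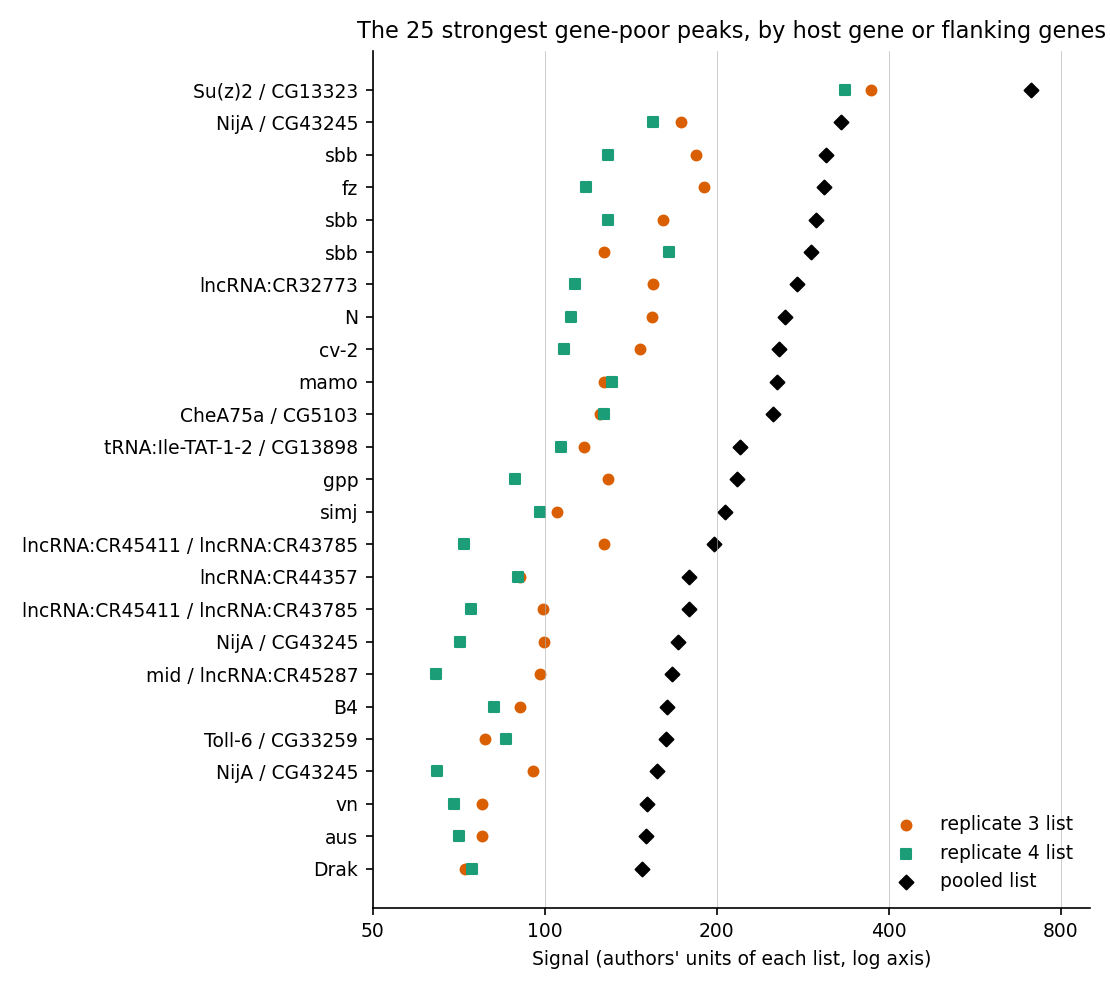
Signals of the 25 strongest gene-poor peaks (rows, strongest at the top, named by host gene or by the genes of the nearest TSS on each side) in the lists of replicate 3, replicate 4 and the pooled reads, on a log axis in the authors' units. The peak between Su(z)2 and CG13323 stands at 711 and the weakest of the 25, in Drak, at 148; every one has a value in both replicates.

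Some loci held several gene-poor peaks, although these peaks were farther apart than other peaks. The next pooled summit lay a median of 2.60 kb from a gene-poor peak, against 1.55 kb for other peaks. Among IDR peaks these medians were 1.47 and 1.06 kb. With peaks no more than 5 kb apart joined, the 2588 gene-poor peaks formed 1473 loci, of which 909 held a single peak and the largest held 16. The 120 IDR peaks fell in 99 loci, and 12 loci held at least 2 of them. Another IDR peak of any kind lay a median of 12.5 kb from a gene-poor IDR peak, against 37.9 kb for the other gene-poor peaks. The TSS-free gaps around these 2 groups had medians of 41.8 and 48.7 kb. Summits closer than 250 bp to the next pooled summit, at a typical peak length of 396 bp, describe much the same bases. This held for 185 gene-poor peaks (7.15%), against 13.4% of the other peaks. Among IDR peaks it held for 20 of the 120 gene-poor ones (16.7%), against 22.8% of the others, so some counts of IDR peaks at a locus include such neighbours.

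The gap between the TSSs of Tango8 and sbb held the most gene-poor IDR peaks. It is 45.5 kb long and lies within sbb, which encodes a nuclear corepressor also known as scribbler or brakeless. Of its 13 peaks, 6 were in the IDR list. The 3 strongest had pooled signals of 311, 299 and 292. Replicate 3 gave them 184, 161 and 127, and replicate 4 gave 129, 129 and 165, so the replicates do not rank them alike. The 3 stood between 18785 and 22029 bp from the TSS of sbb, and neighbours were 1327 to 1917 bp apart. A start of sbb itself also had an IDR summit within 1 kb.

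The gap between NijA and CG43245 held 19 gene-poor peaks over 75.0 kb, with no annotated gene body at any of them, and 5 were in the IDR list. Besides the peak of 330.0, these had pooled signals of 171, 157, 81.8 and 79.0, and all 5 were found in both replicates. The gap between CG17974 and cv-2 held 3 IDR peaks, with 257, 88.0 and 77.6. A gap of 22.9 kb between lncRNA:CR45411 and lncRNA:CR43785 held 3 as well, with 198, 179 and 95.2. The summits of the strongest and weakest of these 3 were 204 bp apart, less than a typical peak length. In all, 20 gaps held at least 2 gene-poor IDR peaks, 49 of the 120 together.

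**Figure D4:**
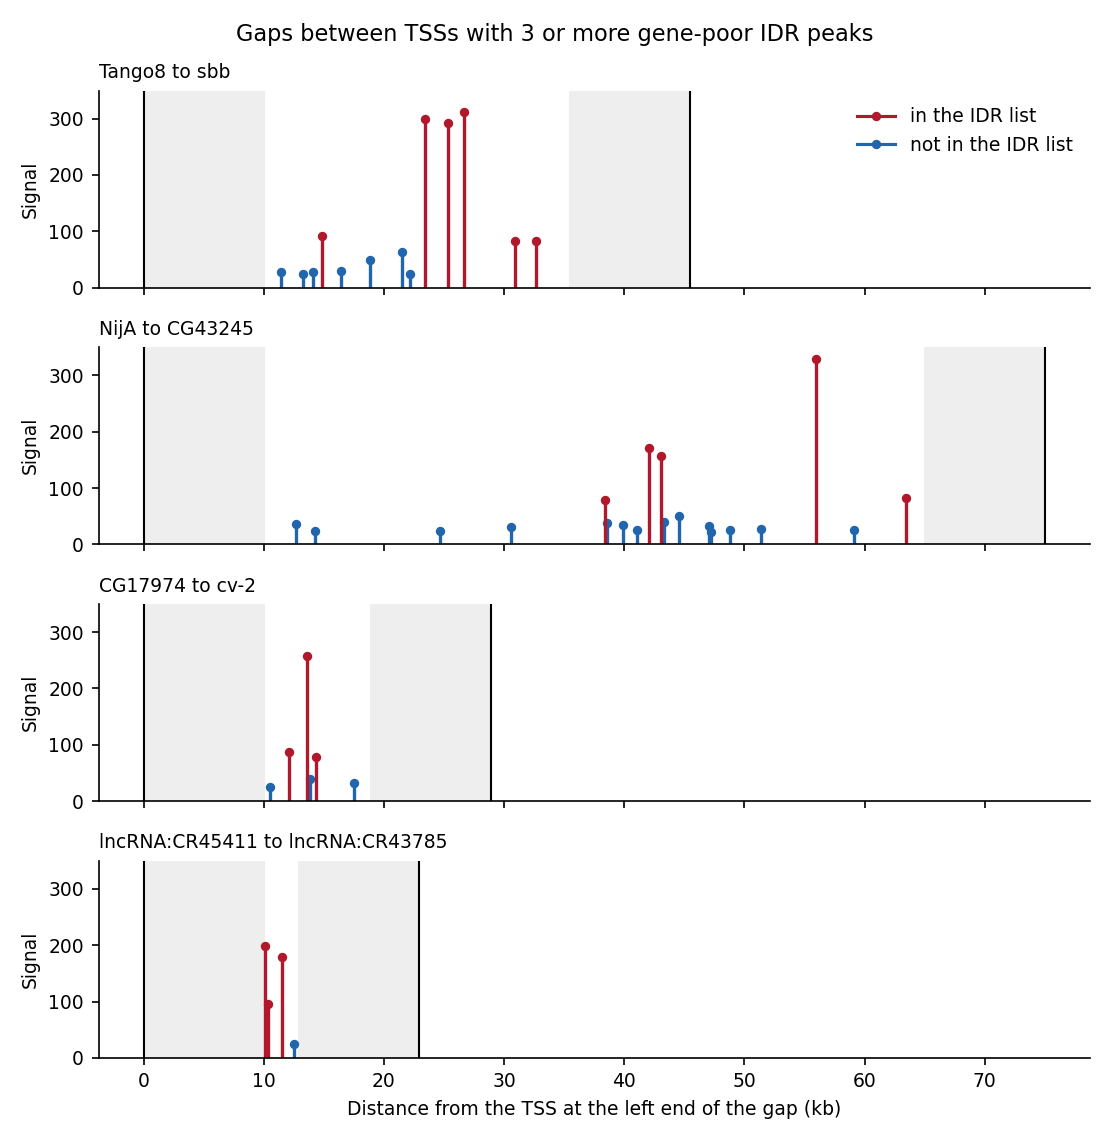
Pooled signal (authors' units) of every gene-poor peak in the 4 gaps between TSSs that hold 3 or more gene-poor IDR peaks, against distance from the TSS at the left end of the gap (kb); red stems are IDR peaks, blue stems are not, black lines are the TSSs at both ends and grey marks the 10 kb next to them, where peaks are not gene-poor and not drawn. The 3 strongest peaks of the Tango8 to sbb gap (311, 299 and 292) sit side by side, while the peak of 330.0 in the NijA to CG43245 gap stands apart from the others.

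Of the 20 gaps with at least 2 gene-poor IDR peaks, some intergenic ones lie next to genes of embryonic patterning. The 3 named here were picked after their values were seen, so they give no rate. Others, as between CheA75a and CG5103, were not picked. Between Wnt4 and wg, which encode Wnt ligands, 2 IDR peaks had pooled signals of 124 and 93.4, 11104 and 11983 bp from a TSS of wg. Near ems, a homeodomain factor of the head, 2 had 123 and 105, 13996 and 13062 bp from a TSS of ems. In the gap next to vvl, a POU-domain factor, 2 had 125 and 73.2, the stronger one 33859 bp from a TSS of vvl. All 6 were found in both replicates. The gene lists described below do not hold wg, ems or vvl. They also lack other transcription factor genes that flank intergenic IDR peaks, among them croc, B-H2, toe, eyg, sens-2 and oc. The next count leaves the peaks of these genes out and covers the listed genes only. A patterning transcription factor from the list described below had one of the nearest TSSs for 3 of the 40 intergenic IDR peaks (7.50%, 2.58% to 19.9%), against 62 of the 741 other intergenic gene-poor peaks (8.37%, 6.58% to 10.6%). These were the peaks near mid, Dr and salm.

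Host genes were counted next. Of 830 genes with any base more than 10 kb from a TSS, 518 held a gene-poor peak (62.4%). Of 800 such coding genes, 55 held one in the IDR list (6.88%, 5.32% to 8.84%). The hosts with the most peaks were Myo81F with 61, Pzl with 24, and kirre, pum and DIP-lambda with 23 each. hth followed with 20, then Tet, SKIP and lncRNA:CR44999 with 17 each and CG12535 with 16, the last overlapping lncRNA:CR44999.

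Number of peaks and strength did not go together among these hosts. Myo81F is 1966 kb long and its strongest peak had a pooled signal of 42.9. Myo81F, Pzl and DIP-lambda held 33.0, 35.3 and 63.3 peaks per gene-poor Mb and no IDR peak. hth encodes a homeodomain partner of Hox proteins, and held 3 IDR peaks among 20, the strongest with 109. kirre, an immunoglobulin-family receptor of myoblast fusion, held 2 among 23, the strongest with 94.2. pum, an RNA-binding translational repressor, held none, and its strongest peak had 60.1. Genes with at least 2 gene-poor IDR peaks numbered 19, led by sbb with 6 and by cv-2 and hth with 3 each.

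Genes with a gene-poor IDR peak inside were also read for a peak at their own start. A TSS with an IDR summit no more than 1 kb away was present in 13 of the 55 coding genes with a gene-poor IDR peak (23.6%, 14.4% to 36.3%). The share was 17.3% of 444 coding genes whose gene-poor peaks were all outside the IDR list (14.1% to 21.1%), and 19.3% of 301 with gene-poor bases and no peak there (15.2% to 24.1%). The intervals of all 3 groups overlap. Over all 13865 coding genes on the arms it was 15.3%.

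Host genes were then read by function, with 4 lists of genes that often have long introns. The lists were written with earlier results of these data known, so their shares describe them and give no independent support. Of these lists, patterning transcription factors had the highest density of peaks. Of 34 with gene-poor bases, 32 held a gene-poor peak (94.1%), against 62.4% of all 800 coding genes with such bases. Their density was 147 peaks per gene-poor Mb, against 96.2 over all coding genes. The latter value includes Myo81F and Pzl, with 1847 and 679 gene-poor kb at 33.0 and 35.3 peaks per Mb. An IDR peak was held by 7 of the 34 (20.6%), against 6.88% of all. These were mamo (255), bi, a T-box factor (116), hth (109), pros, a homeodomain factor of neural differentiation (108), Lim1, a LIM homeodomain factor (87.3), and the neighbouring BTB factors bab2 and bab1 (71.9 each). The strongest peak of the Hox gene Ubx had 63.6 and was not in the IDR list.

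Adhesion and guidance genes held gene-poor peaks in 62 of 81 (76.5%), at 104 per gene-poor Mb, and IDR peaks in 4 (4.94%). The 4 were NetA, a secreted guidance cue (146), ed, an immunoglobulin-family adhesion protein (113), kirre (94.2) and unc-5, a netrin receptor (77.5). Ion channel, receptor and synapse genes held peaks in 32 of 41 (78.0%), at 88.6 per gene-poor Mb. Their single IDR peak was in Ca-beta, a calcium channel subunit (118). The strongest peaks of nAChRalpha3 and dnc, a phosphodiesterase, each had 65.8, and that of Ca-alpha1T had 60.4. Of 12 RNA-binding genes with long introns, 9 held peaks (75.0%) and none an IDR peak, the strongest being msi with 53.6, Rbfox1 with 43.8, bru3 with 41.6 and heph with 40.1. The share of genes with a peak depends on how many gene-poor bases a list's genes hold, which the density per Mb takes into account. These counts describe the lists, and no test over genes was made.

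Gene-poor summits in the IDR list were poorer in GC than those outside it, which is a division by signal. Over the summit and 50 bp to each side, gene-poor IDR peaks had 32.5% GC ± 7.42 (SD over 120 peaks), against 33.7% ± 8.83 for the other 2636 IDR peaks. The windows 500 bp to each side had 41.9% and 44.4%. Gene-poor peaks outside the IDR list had 43.1% ± 9.70 at the summit (2468 peaks) and 40.8% beside it. The summit was poorer in GC than its sides in 100 of 120 gene-poor IDR peaks (83.3%, 75.7% to 88.9%) and in 40.4% of the gene-poor peaks outside the list (38.5% to 42.4%).

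The dip was sharp in the IDR peaks. In bins of 25 bp, mean GC content was 30.5% ± 1.00 (SE) at the summit and 47.3% ± 1.32 at 300 bp to the left in gene-poor IDR peaks. That left bin was the highest of their profile. At 300 bp to the right they had 45.0%, and at 1 kb to the left and right 38.6% and 41.0%. The other IDR peaks had 32.9% ± 0.257 at the summit and 45.2% ± 0.266 at 300 bp to the left. Gene-poor peaks outside the IDR list had 43.1% ± 0.283 at the summit and 42.9% ± 0.275 at 300 bp to the left, with no dip. Gene-poor peaks of the strongest class of signal that were not in the IDR list had 35.9% GC ± 9.32 at the summit, against 37.5% ± 10.2 for other such peaks. Over the 4 classes of signal, weakest first, gene-poor summits had 44.4%, 43.6%, 43.4% and 34.7%, against 45.5%, 45.1%, 43.6% and 35.5% for the other peaks. The 28 gene-poor IDR peaks beyond 20 kb had 30.3% ± 5.10, and 27 of them dipped at the summit.

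**Figure D5:**
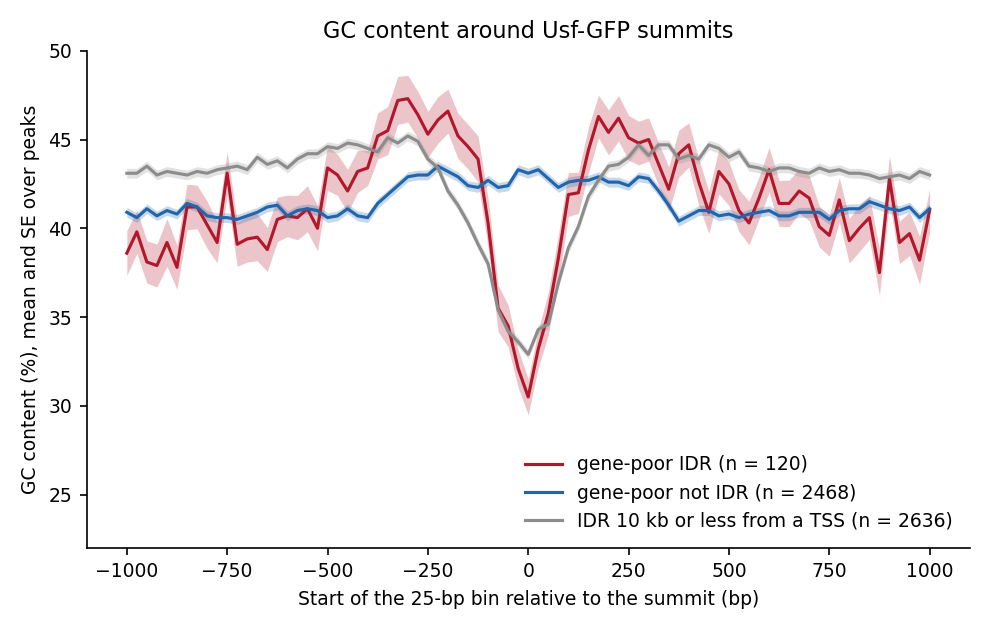
Mean GC content (%) in 25-bp bins from 1 kb left to 1 kb right of the summit, for gene-poor IDR peaks, gene-poor peaks outside the IDR list and IDR peaks 10 kb or less from a TSS; bands are the SE over peaks. Both IDR groups dip at the summit, to 30.5% and 32.9%, while gene-poor peaks outside the list stay at 43.1%.

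The E-box CACGTG was no more common at gene-poor summits than beside them. It was searched, with all other motifs, on both strands from 100 bp left to 100 bp right of the summit and in equal windows centred 500 bp away on either side; no searched motif contains another. CACGTG occurred at 59 of 2588 gene-poor summits (2.28%, 1.77% to 2.93%) and in 2.49% of their side windows. It occurred at 3.16% of the other summits and in 2.59% of their side windows, and over all pooled peaks at 3.05% and in 2.58%. None of the 120 gene-poor IDR summits held it, which allows a share of up to 2.50%, against 68 of 2636 other IDR summits (2.58%, 2.04% to 3.26%). That limit lies just below 2.58% but inside its interval, so 120 peaks do not settle whether the shares differ. The whole peak interval held CACGTG in 2 of the 120.

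The strongest gene-poor peaks with the E-box were modest. The one printed above, near tRNA:Ile-TAT-1-2, had a pooled signal of 61.7, with 29.2 in replicate 3 and 32.4 in replicate 4. Next came a peak 13359 bp from the TSS of croc, a forkhead factor, with 61.3, and a peak near CG7320 with 60.8 that was found in replicate 4 only. One in Eip75B, an ecdysone-induced nuclear receptor gene, had 45.1. These genes were named after their values were seen.

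Other short sequences also differed between strong and weak peaks. One of them, TTAAAA, holds no G or C, so its share and the GC content described above are not separate results. TTAAAA occurred at 55.8% of gene-poor IDR summits (46.9% to 64.4%) and in 29.2% of their side windows, much as at the other IDR summits (52.8%, with 22.4% beside). At gene-poor summits outside the IDR list it occurred at 28.6%, below the 31.7% beside. Outside the IDR list it was also more common at higher signal, at 44.2% of gene-poor summits of the strongest class (37.7% to 50.9%) and at 24.6% of those of the weakest class (21.9% to 27.7%). The other peaks had 43.9% and 24.7% in these classes. ACAGTG occurred at 18.3% of gene-poor IDR summits (12.4% to 26.2%) and in 5.0% of their side windows. The other IDR peaks had 19.3% and 8.92%, and the other peaks outside the IDR list 11.3% and 7.57%. Among all gene-poor peaks it occurred at 10.1% of summits from 10 to 20 kb and at 9.70% beyond 20 kb. The windows printed above show both kinds, with TTAAAA in the peaks near NijA and in N and neither sequence in fz or lncRNA:CR32773.

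TATCGAT was most common at the peaks closest to gene starts, and there IDR peaks did not stand out. This motif, the core of the element bound by DREF, occurred at 2.50% of gene-poor IDR summits (0.854% to 7.09%), as often as in their side windows (2.92%), against 6.34% of the other IDR summits (5.47% to 7.33%) and 13.4% of IDR summits within 200 bp of a TSS (11.4% to 15.7%). Over all pooled peaks within 200 bp of a TSS it occurred at 13.9% (12.8% to 15.2%). The interval of the gene-poor IDR peaks overlaps that of the other IDR peaks. Among IDR summits the share was already 1.90% from 200 to 1000 bp, 3.27% from 1 to 2 kb, 1.66% from 2 to 5 kb and 2.06% from 5 to 10 kb, so the low share was not particular to peaks beyond 10 kb. GAGAGAG, the sequence of GAGA factor, occurred at 1.67% of gene-poor IDR summits and in 7.08% of their side windows, and at 3.79% of the other IDR summits with 6.01% beside. A repeat of 5 CA units showed the same values at gene-poor IDR peaks, 1.67% at the summit and 7.08% beside. CAGGTAG, bound by Zelda, occurred at 0.850% of gene-poor summits and in 0.927% of their side windows. A match to such short letters is a description of the sequence and not of a bound factor.

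Strong peaks were rare in coding exons, both far from and near a TSS. None of the 120 gene-poor IDR summits lay in a coding exon, which held 3.66% of gene-poor bases and 111 of the 2588 peaks. Of the other IDR peaks, 9 of 2636 did (0.341%, 0.180% to 0.648%). Outside the IDR list coding exons held 4.50% of gene-poor peaks and 16.7% of the other peaks. The 111 gene-poor summits in coding exons had 55.3% GC ± 8.99. The strongest were in pyr with 45.5, CadN with 42.1 and Cdep with 41.3. Among gene-poor IDR peaks, 78 were in introns, 40 intergenic and 2 in non-coding exons. The IDR share was 4.68% of intronic gene-poor peaks (3.77% to 5.81%) and 5.12% of intergenic ones (3.78% to 6.90%), with overlapping intervals.

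On every arm the gene-poor IDR share was the lower one, while its level varied. Gene-poor IDR shares were 4.68% on 2L, 3.29% on 2R, 4.84% on 3L, 3.89% on 3R and 6.85% on X, each below the share of the other peaks of the same arm, 13.3%, 13.4%, 13.8%, 13.7% and 17.8%. The gene-poor intervals of 2R (1.93% to 5.55%) and X (4.78% to 9.72%) overlap. The interval of the other peaks on X (16.4% to 19.2%) lay above those of all other arms. Density varied as well, with 112 gene-poor peaks per gene-poor Mb on 2L and 58.6 on 2R. For gene-poor IDR peaks it was 1.93 per gene-poor Mb on 2R and 5.30 on X. The share of gene-poor bases in transposon-rich surroundings, where transposons cover at least 20% of 100 kb, was 12.2% on 2L and 20.5% on 2R. The part of such sequence in the density was not tested.

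Transposon-rich surroundings held 11.8% of gene-poor bases, 157 gene-poor peaks (6.07%) and 2 of the gene-poor IDR peaks. Their IDR share was 1.27% (0.350% to 4.53%), against 4.85% of the other 2431 gene-poor peaks. The 2 IDR peaks had pooled signals of 148, near GCS2alpha, and 134, near CG10651, and were found in both replicates. Repeat-masked bases made up 17.4% of the windows at gene-poor summits and 30.7% of gene-poor sequence. How reads in repeats were handled is not given in the sources used here.

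The 3 summits farthest from any TSS were all weak. One on 3R was 426731 bp from the TSS of Myo81F and had a pooled signal of 23.4, found in replicate 4 only. The other 2 were on 3L, between CG42598 and CG40228, at 345223 and 327470 bp, with 35.4 and 27.4, both found in replicate 3 only. None was in the IDR list.

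Among gene-poor peaks found in a single replicate list, the strongest were near the lower end of the IDR range. In replicate 3 only, a peak between CheA75a and CG5103 had a pooled signal of 82.4, a peak in B4 81.3 and a peak near B-H2, a Bar homeodomain factor, 81.1. Their signals in the replicate 3 list were 41.4, 45.6 and 30.7. In replicate 4 only, a peak in SKIP had 89.9, a peak in sbb 81.9 and a peak near Toll-6 66.5, with 55.5, 45.6 and 59.4 in the replicate 4 list. All but the one near Toll-6 were in the IDR list. That one lay 205 bp from the stronger IDR summit near Toll-6.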

How the data were processed

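The deposited files were narrowPeak lists on dm6 (pooled relaxed, IDR and 1 relaxed list per replicate); lists on dm3 were not used. The authors made a signal value and a summit for each peak. Per the deposited sample notes, the relaxed lists were the input of the IDR step, with 1 control alignment shared by both replicates. Not given in the sources used here are the aligner, peak caller, versions, signal scaling, IDR threshold and read depth. Sonication gave fragments of 200 to 800 bp, per the labels.

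Summits were joined, with Python 3.11.15 and pandas 2.3.3, to the Ensembl 115 annotation (FlyBase 6.54) without transposable elements, and to the RefSeq Release 6 sequence. This left 18046 genes and 23398 TSSs on the 5 arms. Lists were matched within 100 bp of a summit. Shares carry Wilson intervals (scipy 1.17.1). There is 1 group, so no p-value was computed, and the labels call the replicates biological. Code was tested on simulated peaks. Genes named are those at the strongest, farthest and single-replicate peaks, the 10 hosts with most peaks and up to 4 per list; others are marked. Members, motifs and lists were chosen with earlier results of these data known. Alternatives covered distance, TSS set, list, matching, windows and transposons.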

Additional observations from a re-analysis of the deposited data

How the results depend on the processing

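The number of gene-poor peaks was 2588, and it was 5479 beyond 5 kb, 907 beyond 20 kb and 1002 above the median signal of the pooled list. The IDR share of 4.64% was 5.73% beyond 5 kb, 3.09% beyond 20 kb, 5.71% with TSSs of coding genes only and 12% above the median signal. The share of the other peaks under those 4 settings was 15.6%, 13.5%, 14.6% and 27.5%, so gene-poor peaks stayed below in each. The share found in both replicates, 23.2%, was 25.1% beyond 5 kb, 19.0% beyond 20 kb, 49.8% above the median signal, 14.7% with matches within 50 bp, 31.8% within 200 bp and 37.8% by overlap. The median signal of 27.4 was 26.7 beyond 20 kb and 36.6 above the median signal. The intronic share of 64.3% was 60.5% beyond 5 kb, 66.9% beyond 20 kb and 55.6% with coding TSSs. GC content of 42.6% was 43.2% beyond 20 kb and 40.5% above the median signal. CACGTG, at 2.28%, was at 1.43% beyond 20 kb, 1.28% with 50 bp to each side and 4.33% in the whole peak.

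With a single replicate's list in place of the pooled one, the number was 3778 to 4021, the IDR share 2.96% to 3.12%, the share matched in the other replicate 14.7% to 15.6%, the median signal 14.2 to 16.4 on each list's own scale, the intronic share 63.4% to 64.4%, GC content 42.7% to 43.7% and CACGTG 2.26% to 2.70%. Another 2 alternatives were chosen after seeing the data: without transposon-rich sequence 2431 peaks were left, with transposon starts counted as TSSs 1891, and no other result left its interval. The causes of these shifts were not tested. No paired analysis was possible because there is 1 group. The 120 gene-poor IDR peaks limit the precision of every motif share, and read depth is unknown.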

Other observations

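The relaxed lists of the single replicates held more gene-poor peaks than the pooled list. In replicate 3, 3778 of 28261 peaks on the 5 arms lay more than 10 kb from every TSS (13.4%), and in replicate 4, 4021 of 28960 (13.9%). Their median signal was 16.4 in replicate 3, where the median of the whole list was 17.2, and 14.2 in replicate 4, where it was 15.2. Of these gene-poor peaks, 118 in replicate 3 and 119 in replicate 4 had an IDR summit within 100 bp.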
